A study of Rattus norvegicus with 20 samples.

Results

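Marrow adipocytes are fat cells that share the marrow space with blood-forming cells, stroma and vessels. Adipocytes take up fatty acids that lipoprotein lipase frees from circulating triglyceride, store them in droplets coated by perilipin and CIDE proteins, and release hormones such as adiponectin, leptin and adipsin. The nuclear receptor PPARG, which pairs with a retinoid X receptor on DNA, drives the differentiation of these cells and turns on many of their genes. In the young rat femur marrow is mainly red and holds few fat cells, and several adipocyte genes are also used by other cells of bone. Lpl and Cd36 are made in muscle, Fabp4 and Cd36 in capillary endothelium, and Cd36, Lpl and Cfd in macrophages.

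The 10 genes described here were chosen by name, with earlier results of these data known. The genes are Adipoq, Fabp4, Plin1, Cfd, Lpl, Cd36, Pparg, Lep, Retn and Cidec. Each was taken at every probe set that carries its symbol alone in the array annotation. Of these, 9 genes had such a probe set, 10 probe sets in all among 31042 that were not controls, and Retn had none. Their expression was measured on Affymetrix Rat Genome 230 2.0 arrays in proximal femur RNA of 20 rats aged 4 weeks, 5 of each strain, with 1 array per animal. NP is the inbred alcohol-nonpreferring strain and P the inbred alcohol-preferring strain. NP.P is a congenic strain with the P segment of chromosome 4 (4q22-q34) on the NP background, and P.NP is the reciprocal strain with the NP segment on the P background; each congenic strain came from repeated backcrossing, so animals of a strain share its whole genome and differences between strains cannot be told apart from any other feature fixed in that line. The rats were males from 1 colony on standard chow, with no treatment described. The study asked which femoral genes follow the transferred segment, and the arrays were compared accordingly between NP.P and NP, between P.NP and P, between P and NP, and between the backgrounds, that is P.NP and P together minus NP and NP.P together.

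The deposited values are MAS5 signals, linear intensities brought by the authors to 1 common trimmed mean, and the median signal of an array lay between 291.9 and 322.3. Differences are given on the log2 scale with the standard error of the fit, from limma with Benjamini-Hochberg adjustment over 18625 probe sets at or above the 40th percentile of mean signal (169.7), and a gene is said to have passed, or to be higher or lower, at a false discovery rate of 10%. The number of arrays limits the precision, and in RNA of a whole tissue fewer cells of a type and less RNA per cell cannot be told apart. NP replicate 2 stood apart on the second principal component, with -38.61, and had the highest summed signal of the 11 skeletal muscle genes, 571560 against a median of 383845 in NP. P replicate 2 and P.NP replicate 2 were also the lowest of their strains on this component (-20.68 and -13). Both had the highest muscle sum of their strain (514118 and 521906). Lpl, the gene in which NP replicate 2 was far from its strain, is given with and without that array.

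The adipocyte label was borne out unevenly. Adipoq, Plin1 and Cidec, all largely restricted to fat cells, had mean signals above the filter in these bones. The same RNA gave signal of skeletal muscle genes, and whether the fat cells lay in the marrow or outside it was not tested. Leptin, the satiety hormone of fat, was far below it, and the Lep probe set gave signals of 5.721 to 17.86 for NP, 7.014 to 47.71 for NP.P, 6.331 to 23.56 for P.NP and 6.817 to 29.24 for P, at percentile 2.67 of all probe sets, and was not tested. Plin1 was read at its brighter probe set, since the other averaged 136.2 for NP, 107.6 for NP.P, 97.38 for P.NP and 104.2 for P and fell below the filter. This left 8 of the 10 genes tested. Cd36 was read at its own probe set, and another whose annotation joins Cd36 with a second symbol was not used.

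In the gene order of the GRCr8 assembly (the array files name no build, so positions are given by order only), 4 of the 10 genes lie on chromosome 4. Arf5 and Ppp4r2 are the outermost genes of the segment that differed among strains in the study's own tests, and the segment, which is bounded by markers, may reach beyond them. Lep lies between them, with 5 protein-coding genes between it and the nearer of the pair. Cd36 lies before Arf5 with 173 genes between, and Cidec and Pparg lie after Ppp4r2 with 39 and 65 genes between, so whether the last 2 are in the segment cannot be told from gene order. Adipoq (chromosome 11), Fabp4 (chromosome 2), Plin1 (chromosome 1), Cfd (chromosome 7), Lpl (chromosome 16) and Retn (chromosome 12) lie on other chromosomes.

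RefSeq promoters of GRCr8, from 250 bases before to 50 after a gene's start, were listed for 8 of the 10 genes, 9 promoters in all, since Pparg has a pair. The promoters of Adipoq (chr11:91240120-91240419, minus strand) and Plin1 (chr1:143086099-143086398, minus strand) are shown because in both genes every NP.P array read above every NP array; they are printed 5′ to 3′ on the gene's strand, and capitals mark ATTGG or its complement CCAAT, the CCAAT box.
Adipoq: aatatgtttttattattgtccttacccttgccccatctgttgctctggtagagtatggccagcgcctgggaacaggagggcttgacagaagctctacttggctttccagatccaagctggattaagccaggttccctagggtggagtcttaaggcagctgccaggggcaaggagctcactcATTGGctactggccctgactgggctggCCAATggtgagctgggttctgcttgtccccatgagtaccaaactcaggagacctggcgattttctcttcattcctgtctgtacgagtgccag
Plin1: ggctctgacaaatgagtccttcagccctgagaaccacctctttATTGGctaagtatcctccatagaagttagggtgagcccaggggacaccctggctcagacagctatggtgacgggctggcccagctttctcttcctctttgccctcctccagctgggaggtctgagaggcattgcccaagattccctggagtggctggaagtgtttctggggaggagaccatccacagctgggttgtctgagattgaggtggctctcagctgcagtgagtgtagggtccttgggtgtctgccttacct
Adipoq held the motif at 2 places, starting at positions -69 and -42 from the start of transcription, and Plin1 at 1, at -207. On either strand ATTGG was present in promoters of 4 of these genes, Adipoq, Plin1, Lep and Pparg, against 37.5% of all 33469 promoters. AGGTCA, the core motif of nuclear receptors, was present in that of Retn alone (16.2% of all promoters), and the PPARG type of site, a direct repeat of AGGTCA with 1 base between, in none (0.0538% of all). TATAAA was found in Cd36 and Pparg (14.2% of all) and the E box CACGTG in none (6.42% of all). These are matches of letters, searched on both strands without regard to overlap, and not sites.

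By the F test over strain means, 6 of the 8 tested genes differed at a false discovery rate of 10%, namely Adipoq, Fabp4, Plin1, Cfd, Cd36 and Lpl, against 18.2% of all probe sets tested. Pparg and Cidec did not pass, with adjusted p = 0.586 and 0.325 (limma). The plot of member signals by strain shows each array.

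**Figure D1:**
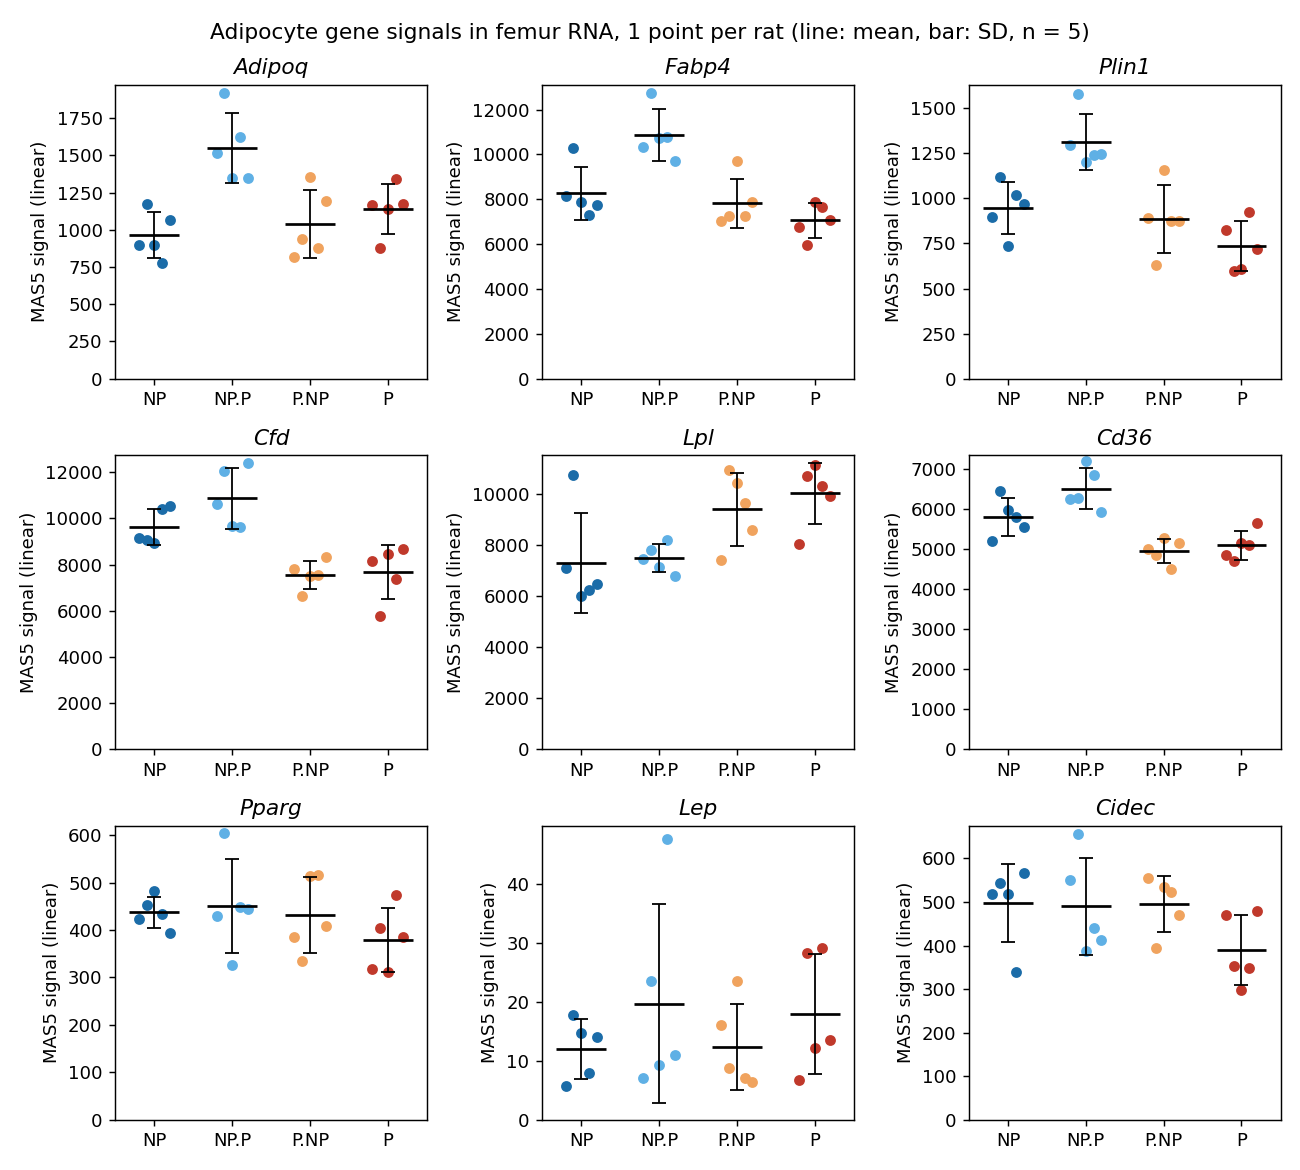
MAS5 signal (linear, vertical axes starting at 0) of 9 adipocyte genes in each of 20 rats, grouped by strain (NP, NP.P, P.NP, P); points are animals, lines are means and bars are SD over 5 animals. All 5 NP.P animals lie above all 5 NP animals for Adipoq and Plin1, all animals on the P background lie below all on the NP background for Cfd, and Lep stays below 50.

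Adipoq and Fabp4 were higher in the congenic strain that carries the P segment on the NP background than in NP. Adipoq encodes adiponectin, the most abundant adipocyte hormone. Its signals were 900, 1170, 900, 778 and 1067 in NP rats and 1516, 1916, 1349, 1624 and 1349 in NP.P rats. They were 819, 938, 1357, 880 and 1192 in P.NP rats and 1166, 879, 1142, 1342 and 1170 in P rats. Every NP.P animal was above every NP animal, while P.NP and P overlapped widely. Strain means were 962.9 ± 155 for NP, 1551 ± 235.3 for NP.P, 1037 ± 228.1 for P.NP and 1140 ± 166.4 for P (SD, n = 5). NP.P exceeded NP by 0.69 ± 0.15 (SE) on the log2 scale, 1.61-fold, with adjusted p = 0.034 (limma). The call was lost without NP.P replicate 2 (0.61, adjusted p = 0.1) or without NP.P replicate 4 (adjusted p = 0.101) and by the methods' unequal-variance test (adjusted p = 0.209), and it held in the other 26 of 29 alternatives.

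Fabp4, the cytosolic fatty acid carrier of adipocytes, gave 8144, 10299, 7894, 7288 and 7724 in NP and 10354, 12759, 10733, 10768 and 9690 in NP.P rats. It gave 7024, 7239, 9712, 7276 and 7865 in P.NP and 6754, 5949, 7872, 7662 and 7070 in P rats. In NP.P 4 of 5 animals were above the highest NP animal, which was replicate 2. The difference between NP.P and NP was 0.40 ± 0.11 log2, 1.32-fold, with adjusted p = 0.0902 (limma), and the call was lost in 20 of 29 alternatives, with adjusted p up to 0.272. The value itself moved little, between 0.34 and 0.48 log2.

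Plin1, the perilipin that coats the fat droplet and gates lipolysis, had signals of 898, 1117, 733, 1021 and 970 in NP and 1294, 1580, 1204, 1238 and 1248 in NP.P rats. All NP.P animals again read above all NP animals, but the difference of 0.48 ± 0.15 log2 did not pass (adjusted p = 0.146, limma). At the other probe set of Plin1, which was below the filter, the NP.P mean was below the NP mean and the strains overlapped. Over the 8 genes, 2 passed in NP.P against NP, both higher, where 2.3% of all probe sets passed, and the groups did not overlap in 2 of 8, Adipoq and Plin1, where 3.28% of all probe sets did not. The median difference of the 8 genes was 0.17 log2, with 7 above zero, beside -0.01 over all probe sets tested.

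The remaining genes differed less between these strains. Cfd encodes complement factor D, or adipsin, a protease secreted by fat, and its difference was 0.17 ± 0.11 log2 (adjusted p = 0.536, limma). Cd36, the fatty acid translocase at the cell surface, gave 0.17 ± 0.07 (adjusted p = 0.344). Lpl, the lipoprotein lipase that hydrolyses circulating triglyceride, gave 0.07 ± 0.14 (adjusted p = 0.895), or 0.21 without NP replicate 2 (adjusted p = 0.367). Pparg gave 0.02 ± 0.15 and Cidec, a droplet fusion protein, -0.03 ± 0.17 (adjusted p = 0.976 and 0.969).

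No adipocyte gene passed between P.NP and P, where 0.231% of all probe sets passed, and no gene separated these strains without overlap, against 1.73% of all probe sets. The estimates for Adipoq, Fabp4 and Plin1 were -0.15 ± 0.15, 0.14 ± 0.11 and 0.26 ± 0.15 log2. For Fabp4, and for Plin1 at the probe set read, the congenic strain had the higher mean on either background. Whether the effect of the segment differed between backgrounds was tested as an interaction, coded as P minus P.NP less NP.P minus NP. It was -0.54 ± 0.16 for Fabp4, -0.74 ± 0.21 for Plin1 and -0.54 ± 0.21 for Adipoq, with adjusted p of 0.214, 0.223 and 0.395 (limma), and none of the 8 genes passed, where 0.317% of all probe sets did. Without NP replicate 2 the Fabp4 interaction was -0.62 with adjusted p = 0.0844.

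Averaged over both backgrounds, 1 of the 8 genes passed for the P segment, Adipoq, with 0.42 ± 0.11 log2 more signal (adjusted p = 0.098, limma), where 0.886% of all probe sets passed. This call was lost in 21 of 27 alternatives.

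Most of the 8 tested genes passed in the contrast between backgrounds. Of the 8 genes 5 passed between the backgrounds, 4 lower and 1 higher on the P background, where 22.5% of all probe sets passed (11.3% lower, 11.1% higher). Their median difference was -0.23 log2, with 7 of 8 below zero, beside 0.02 over all probe sets tested. These 5 calls held in all 27 alternatives run, which include leaving out each array.

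Cfd showed the clearest separation. Its signals were 9148, 9049, 8938, 10404 and 10523 in NP and 10620, 12049, 9652, 9612 and 12402 in NP.P rats. They were 7803, 6651, 7521, 7543 and 8327 in P.NP and 8138, 5774, 8442, 7383 and 8676 in P rats. The highest P background animal, at 8676, was below the lowest NP background animal, at 8938, a separation that 1.83% of all probe sets showed and that no other adipocyte gene had. The difference was -0.43 ± 0.08 log2, 1.34-fold lower, with adjusted p = 0.000709 (limma). P and NP alone did not overlap either, against 4.71% of all probe sets, but their difference of -0.33 ± 0.11 log2 fell short of the threshold (adjusted p = 0.105) and passed under some alternatives, 0.0583 with a mean-variance trend.

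Cd36 was 5188, 6437, 5964, 5800 and 5533 in NP and 6252, 6260, 7192, 6830 and 5921 in NP.P rats. It was 5004, 4842, 5258, 4499 and 5151 in P.NP and 4853, 4689, 5132, 5105 and 5638 in P rats. On the P background 8 of 10 animals were below the lowest on the NP background, and the difference was -0.29 ± 0.05 log2, 1.22-fold lower (adjusted p = 0.000939, limma). Fabp4 was lower on the P background by 1.28-fold (-0.35 ± 0.08 log2, adjusted p = 0.00419), with 6 of 10 animals below the lowest NP background animal. Plin1, at 891, 630, 1160, 876 and 875 in P.NP and 827, 599, 610, 927 and 717 in P rats, was lower by 1.39-fold (-0.48 ± 0.11 log2, adjusted p = 0.00469), with 4 of 10 below. For all 4 genes NP.P had the highest mean, so the contrast between backgrounds contains the NP.P difference described above. In Fabp4 and Plin1, P.NP and NP, which share the NP segment, overlapped widely. Fabp4 was 7024 to 9712 in P.NP and 7288 to 10299 in NP, and Plin1 was 630 to 1160 and 733 to 1117. P and NP.P lay farther apart, at 5949 to 7872 against 9690 to 12759 for Fabp4. For Plin1 they were at 599 to 927 against 1204 to 1580. P.NP and NP were not compared by a test.

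Lpl went the other way. It was 7089, 10733, 6010, 6237 and 6451 in NP and 7456, 7816, 7145, 8195 and 6800 in NP.P rats. It was 7404, 10942, 10407, 9623 and 8598 in P.NP and 8041, 10687, 11153, 10287 and 9907 in P rats. Apart from NP replicate 2, all animals on the NP background were at or below 8195, and 8 of 10 on the P background were above that. The difference was 0.40 ± 0.10 log2, 1.32-fold higher on the P background (adjusted p = 0.00983, limma). It was 0.47 without NP replicate 2, 0.39 without P replicate 2 and 0.37 without P.NP replicate 2. Between P and NP, Lpl was the only gene of the 8 to pass, where 5.36% of all probe sets did, with 0.48 ± 0.14 log2 or 1.40-fold (adjusted p = 0.0696). Without NP replicate 2 it was 0.63, and without P replicate 2 it was 0.46 and did not pass (adjusted p = 0.144, limma). The call was lost in 12 of 29 alternatives, among them the methods' unequal-variance test (adjusted p = 0.344).

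**Figure D2:**
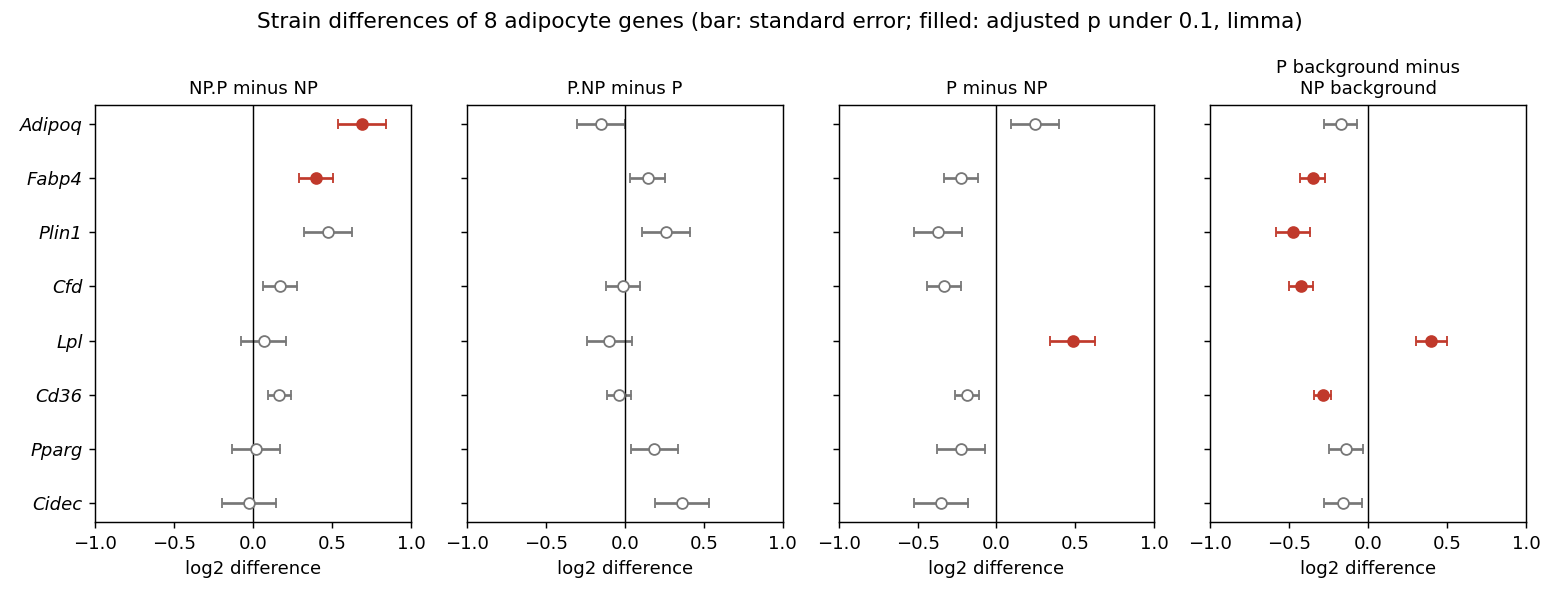
Log2 difference (horizontal axes) with its standard error for 8 adipocyte genes in NP.P minus NP, P.NP minus P, P minus NP and P background minus NP background; filled points passed at a false discovery rate of 10% in limma. The background panel has 5 filled points, 4 to the left of zero and Lpl to the right, and the P.NP minus P panel has none.

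Pparg and Cidec varied as much within strains as between them. Pparg, the master regulator, averaged 437.4 ± 33.08 for NP, 450.8 ± 99.43 for NP.P, 432 ± 80 for P.NP and 378.7 ± 67.28 for P (SD, n = 5), with a lowest animal of 312 and a highest of 605. Cidec averaged 497.3 ± 90.17 for NP, 490 ± 112 for NP.P, 495.6 ± 65.17 for P.NP and 389.8 ± 80.05 for P, with a lowest animal of 299 and a highest of 657. P had the lowest mean of both, and the difference from NP was -0.22 ± 0.15 log2 for Pparg and -0.35 ± 0.17 for Cidec (adjusted p = 0.504 and 0.317, limma). The differences between backgrounds were -0.14 ± 0.11 and -0.16 ± 0.12 (adjusted p = 0.415 and 0.4).

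The genes were then compared animal by animal, after subtracting each strain's mean log2 signal, so that strain differences could not produce a relation. Adipoq and Fabp4 rose and fell together among animals of a strain, with Pearson r = 0.85 and Spearman rho = 0.85 over 20 arrays (permutation p = 6e-05 within strains, two-sided, adjusted 0.00048 over 8 relations). Without the 2 arrays farthest from the median of Adipoq, r was 0.78. Adipoq and Plin1 gave r = 0.61 (permutation p = 0.0111, adjusted 0.0444) and rho = 0.55 (adjusted permutation p = 0.0872), and r = 0.47 without 2 arrays. For the other 6 genes r lay between 0.29 and 0.43, and none passed at 5% (adjusted permutation p of 0.178 or more). Over all 36 pairs of the 9 genes the median r was 0.31, with 30 above zero, a range from -0.35 for Cfd and Lpl to 0.85. These relations include Lep, whose signals were far below the filter, so its values say little about adipocytes. All relations share the arrays and their scaling.

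**Figure D3:**
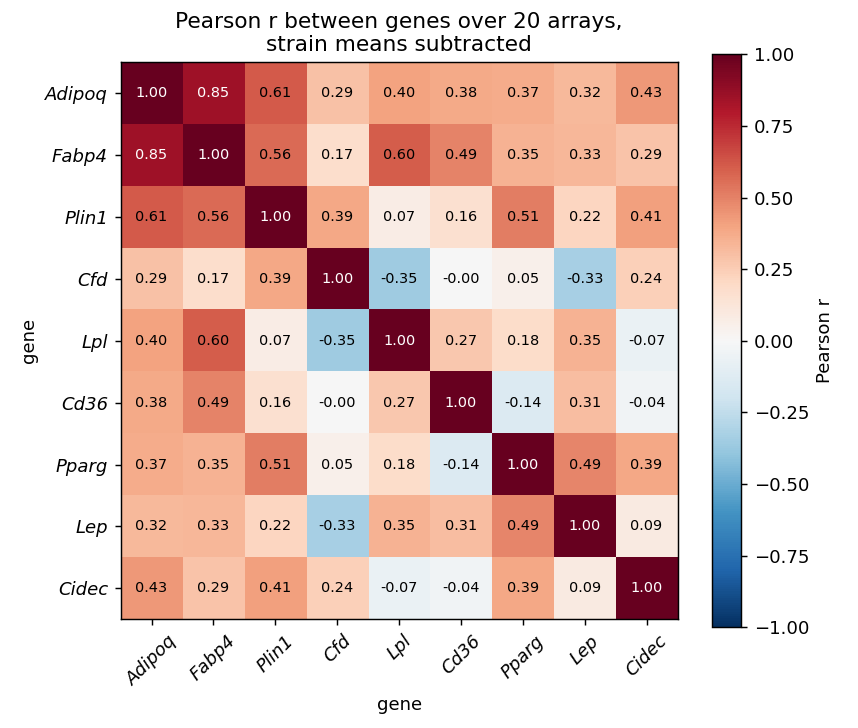
Pearson r between log2 signals of 9 adipocyte genes over 20 arrays with strain means subtracted; colour and printed value give r from -1 to 1. Lep is included although its signals were below the filter. Adipoq with Fabp4 has the highest value, 0.85, followed by Adipoq with Plin1 (0.61), Fabp4 with Lpl (0.60) and Fabp4 with Plin1 (0.56), and Cfd with Lpl has the lowest, -0.35.

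Among other named genes, those whose signal most resembled Adipoq over the 20 arrays, with strain means kept, were Slc25a39 (r = 0.81), C1qbp (0.80), Fabp4 (0.79), Tmeff1 (0.78), Mtarc1 (0.76), Dnajb2 (0.76), Nsdhl (0.75), Mest (0.74), Tmem140 (0.74) and Mxi1 (0.74). With strain means subtracted, the highest of the 10 was Fabp4, at 0.85, and Mest and Tmem140 fell to 0.14 and 0.18. By r with strain means kept, Fabp4 stood at rank 3 and Plin1 at rank 43 of 14135 named probe sets. The other tested members stood lower, Cd36 at 216, Cfd at 599, Pparg at 2276, Cidec at 2960 and Lpl at 5029.

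Other cell types varied among the same animals. The summed signal of 8 macrophage genes had medians of 28500 for NP, 25287 for NP.P, 24991 for P.NP and 23747 for P, and 4 of the 8, Cd163, C1qa, C1qb and C1qc, were lower in P than in NP, and C1qc was also lower in NP.P than in NP. The sum of 7 erythroid genes ran from 134905 to 159811 in NP and from 164983 to 181129 in NP.P rats, without overlap, and from 127197 to 142238 in P.NP and 134048 to 155698 in P rats. On the P background, where Fabp4, Plin1, Cfd and Cd36 were lower, all 7 erythroid genes, 4 of 8 macrophage genes and 3 of 5 platelet genes were lower too, and 1 macrophage and 1 platelet gene were higher. Of 6 marrow stroma genes 3 were higher and 1 lower, and of 7 endothelial genes 2 were higher and 1 lower. Among the rest, 2 of 7 osteoblast, 1 of 11 muscle and 1 of 2 B lymphoid genes were higher, and 1 of 5 granulocyte genes was lower. Over all probe sets tested, 11.3% were lower and 11.1% higher. The sum of 7 endothelial genes ran from 10975 to 11532 in NP and from 10107 to 10906 in NP.P rats, so that every NP.P animal was below every NP animal, and from 10642 to 12294 in P.NP and 10696 to 11482 in P rats. Of the 7, 6 had a negative difference in NP.P minus NP and none passed. Muscle sums ranged from 319036 to 571560 for NP, 404819 to 498144 for NP.P, 398890 to 521906 for P.NP and 357679 to 514118 for P, and none of the 11 muscle genes, led by Acta1, passed in a comparison of 2 strains. A positive difference was seen in 10 of the 11 in P minus NP (median 0.14 log2) and in 10 between backgrounds (0.09). It was seen in 50.9% and 53.9% of all probe sets. In NP.P minus NP it was 9 of the 11 and in P.NP minus P 8, against 46.8% and 50.2% of all probe sets. Of 5 platelet genes, Ppbp, Gp9 and Treml1 were lower in NP.P than in NP, and these and Pf4 were lower in P than in NP; of 2 B lymphoid genes both, Cd79b and Ms4a1, were lower in NP.P than in NP. The erythroid genes Hemgn and Fech were higher in NP.P than in NP, Lcn2 of the 5 granulocyte genes was lower in NP.P and in P than in NP, and Vwf of the endothelial genes was lower in P than in NP. Over all probe sets tested, 1.49% were lower and 0.816% higher in NP.P than in NP. In P against NP 2.94% were lower and 2.43% higher. None of 6 marrow stroma genes, led by Cxcl12, and none of 7 osteoblast genes, led by Col1a2, passed between 2 strains, and no gene of any of these lists passed between P.NP and P. The part of these cell types in the results above was not tested, beyond the following relations within strains.

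Of 27 such relations, between the 9 adipocyte genes and the log2 sums of muscle, macrophage and endothelial genes with strain means subtracted, 2 passed at 5% by Pearson's r, both of Cfd, and none by Spearman's rho (adjusted permutation p = 0.079 for both relations of Cfd). Cfd rose with the macrophage sum (r = 0.77 over 20 arrays, rho = 0.66, permutation p = 0.00088, adjusted 0.0238), and with r = 0.63 without P replicate 2 and P.NP replicate 2. It fell as the muscle sum rose (r = -0.62, rho = -0.64, permutation p = 0.00291, adjusted 0.0393), and with r = -0.68 without NP replicates 2 and 5. Lpl had the opposite signs, 0.70 with muscle and -0.54 with macrophage genes, both at adjusted permutation p = 0.0913, and the muscle relation was 0.48 without NP replicates 2 and 5. For Adipoq the values were -0.00 with muscle, 0.19 with macrophage and -0.21 with endothelial genes.

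**Figure D4:**
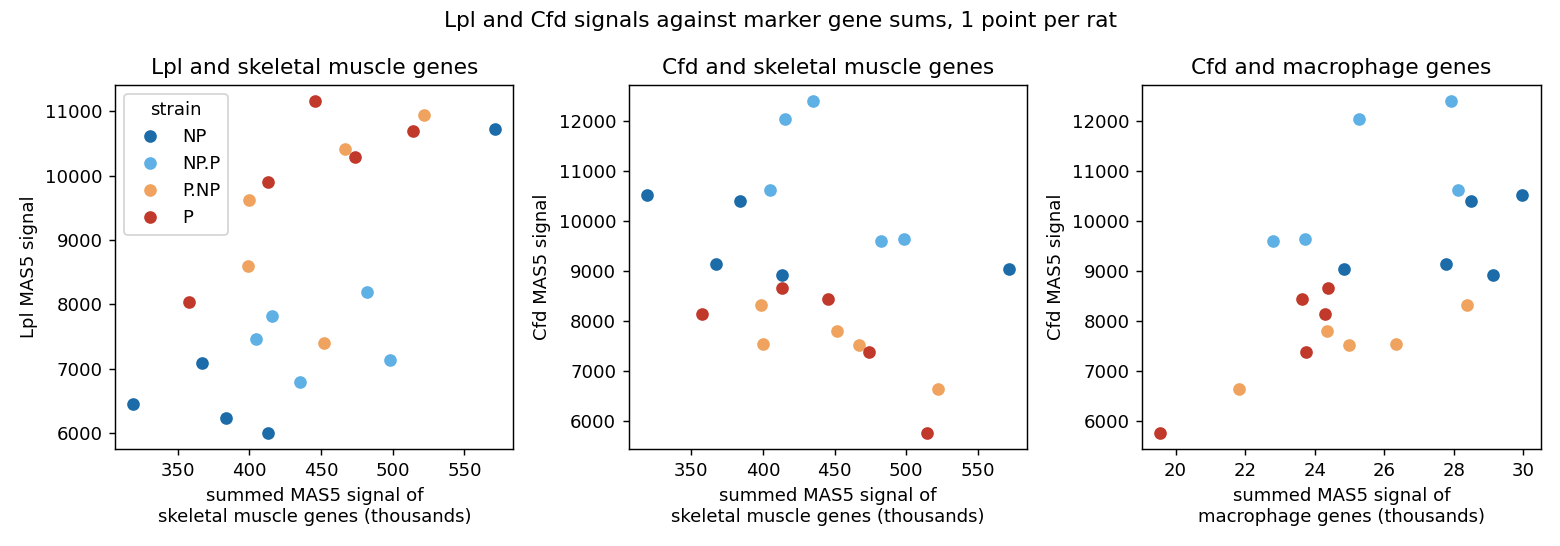
MAS5 signal of Lpl or Cfd (vertical axes, not starting at 0) against the summed MAS5 signal of skeletal muscle or macrophage genes divided by 1000 (horizontal axes), 1 point per rat, coloured by strain. NP replicate 2 is the point farthest to the right in both muscle panels, and the P background points of Cfd lie below the NP background points at every marker level.

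Around these genes, 6 lists of related genes were read in the same fit. Over all probe sets tested, 22.5% passed between backgrounds. The shares were 2.3% in NP.P minus NP, 0.231% in P.NP minus P and 5.36% in P minus NP. Of 12 tested adipogenic regulators, which act upstream of or beside PPARG, none passed in the 3 comparisons of 2 strains. Zfp423 and Nr3c1 (the glucocorticoid receptor) were higher on the P background, by 0.24 ± 0.05 and 0.19 ± 0.07 log2 (adjusted p = 0.00329 and 0.0659, limma). Each was read at its brightest probe set, and the dimmer probe sets of Zfp423 did not all have the higher mean on the P background. Ebf1, the brightest of them, averaged 6294 for NP, 5162 for NP.P, 6369 for P.NP and 6462 for P. Of 14 genes of the lipid droplet and lipolysis none passed between 2 strains, and between backgrounds Plin4 was higher and Cidea lower (0.36 ± 0.14 and -0.38 ± 0.13 log2, adjusted p = 0.0976 and 0.0451). Abhd5, the lipase coactivator and the brightest of them, averaged 2687 for NP, 2682 for NP.P, 2846 for P.NP and 2969 for P.

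Of 13 adipokines and receptors none passed between 2 strains either. Between backgrounds Apln and Lepr, the leptin receptor, were higher and Adipor1, a receptor of adiponectin, lower (-0.18 ± 0.04 log2, adjusted p = 0.00934, limma). These were 3 of the 13, where 22.5% of all probe sets passed. Of 5 tested brown fat genes only Cidea passed, between backgrounds, and Cox8b, the brightest, averaged 23100 for NP, 27890 for NP.P, 24810 for P.NP and 25920 for P. The summed signal of the brown fat list was highest in NP replicate 2 (43389), the array with the highest muscle sum. Which cells gave this signal was not tested. Ucp1, the uncoupling protein that marks brown fat, averaged 599 for NP, 489.7 for NP.P, 448 for P.NP and 356.5 for P and did not pass in any of these comparisons, and Dio2, Elovl3 and Prdm16 were below the filter.

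Of 17 tested genes of fatty acid and triglyceride synthesis, 1 passed between 2 strains. It passed in NP.P minus NP and in P minus NP, where 2.3% and 5.36% of all probe sets passed. This gene, Scd, the stearoyl-CoA desaturase that makes oleate, was 604, 604, 1074, 529 and 773 in NP and 2385, 1799, 1115, 1481 and 1718 in NP.P rats. It was 995, 1011, 1316, 360 and 1365 in P.NP and 2216, 1222, 1395, 2322 and 1290 in P rats. Every NP.P and every P animal was above every NP animal, where 3.28% and 4.71% of all probe sets separated these pairs of strains. NP.P exceeded NP by 1.25 ± 0.31 log2 (2.38-fold, adjusted p = 0.0685, limma), a call lost in 10 of 29 alternatives with adjusted p up to 0.209. P exceeded NP by 1.23 ± 0.31 (2.34-fold, adjusted p = 0.0328), which held in all 29. Averaged over backgrounds the P segment went with 1.04 ± 0.22 log2 more Scd (adjusted p = 0.0435), while P.NP minus P alone was -0.82 ± 0.31 (adjusted p = 0.496), or -0.49 without P.NP replicate 4 (adjusted p = 0.79). Scd has close paralogs, and the specificity of the probe set was not tested. Of the other 16 genes of this list none passed between 2 strains. Between backgrounds 4 of the 17 passed, where 22.5% of all probe sets did. Fasn and Acss2 were higher and Agpat2 and Pck1 lower on the P background.

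Of 11 tested partners of lipid uptake, 4 passed in a comparison of 2 strains. The counts were 1 in NP.P minus NP, 1 in P.NP minus P and 3 in P minus NP. Over all probe sets, 2.3%, 0.231% and 5.36% passed in these comparisons. Fabp5, a relative of Fabp4, averaged 8761 ± 907.3 for NP, 12100 ± 2514 for NP.P, 7577 ± 458.7 for P.NP and 7126 ± 615.1 for P (SD, n = 5), with NP.P above NP by 0.45 ± 0.12 log2 (adjusted p = 0.073, limma, lost in 12 of 29 alternatives). Gpihbp1, which holds lipoprotein lipase on capillary walls, was lower in P than in NP by 1.39-fold (-0.47 ± 0.13 log2, adjusted p = 0.0482), where Lpl itself was higher. Apoe, the lipoprotein ligand that macrophages also make, averaged 9082 for NP, 8006 for NP.P, 5107 for P.NP and 5580 for P and was lower in P than in NP (-0.71 ± 0.09 log2, adjusted p = 4.1e-05).

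Angptl4, the fasting-induced inhibitor of lipoprotein lipase, was 917, 1862, 1303, 1686 and 2261 in NP and 1341, 1922, 1650, 1572 and 1777 in NP.P rats. It was 1722, 2547, 3176, 2666 and 1661 in P.NP and 612, 406, 1259, 782 and 914 in P rats. All P.NP animals were above all P animals, where 1.73% of all probe sets separated these strains. P.NP exceeded P by 1.62 ± 0.27 log2, 3.08-fold (adjusted p = 0.0192, limma), and P was below NP by 1.05 ± 0.27 log2 (adjusted p = 0.0351), while NP.P minus NP was 0.10 ± 0.27 (adjusted p = 0.925). The effect of the segment thus differed between backgrounds, with an interaction of -1.72 ± 0.38 log2 (adjusted p = 0.0865), which was lost in 17 of 27 alternatives. Lpl RNA did not pass between P.NP and P (-0.10 ± 0.14 log2, adjusted p = 0.952, limma). The activity of the lipase, which Angptl4 inhibits, was not measured.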

How the data were processed

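RNA was extracted from the proximal femur, with the marrow in it, and hybridized to Affymetrix arrays, 1 per animal. The authors deposited MAS5 signals, which are linear intensities; the robust multichip average values and detection calls described in the methods were not used. Values under 1 (190 of them) were set to 1 before log2. Probe sets at or above the 40th percentile of the mean log2 signal (18625) were fitted with 4 strain means in limma 3.58.1 (R 4.3.3; 16 residual and 2.78 prior degrees of freedom), with P values adjusted by Benjamini-Hochberg over all of them at a false discovery rate of 10%. The brightest probe set with 1 symbol stood for its gene. Summed marker signals are sums of linear signals. Correlations used 100000 permutations within strains. Members and lists were chosen with earlier results of these data known. Named beside the members were listed genes that passed in a comparison of 2 strains or, where a list had none, its brightest, and the 10 genes most like Adipoq; Pck1, Ucp1 and genes that passed only between backgrounds were named after their values were seen. The fit was tested on simulated data. Alternatives were quantile normalization, the filter removed or set at the 60th percentile, a mean-variance trend, an offset of 21.7, a 5% false discovery rate, the methods' unequal-variance test, 2 strains alone, the replicate block, the other probe set, strain means kept in correlations, and each array left out. Python 3.11.15 and matplotlib 3.10.9 drew the figures.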

Additional observations from a re-analysis of the deposited data

Results flagged for a closer look

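Pck1 and Angptl4, both induced by fasting in adipocytes and other tissues, had effects of the chromosome 4 segment that differed between the backgrounds in limma. For Pck1, the gluconeogenic and glyceroneogenic enzyme, the interaction was -1.50 ± 0.34 log2 (adjusted p = 0.0865), with means of 1403 ± 489 for NP, 2302 ± 799.4 for NP.P, 1570 ± 331 for P.NP and 923.2 ± 231.9 for P (SD, n = 5). For Angptl4 it was -1.72 ± 0.38 log2 (adjusted p = 0.0865). In both genes the congenic strain had the higher mean on either background. The calls were lost in 19 and 17 of 27 alternatives.

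In 60 groups of 5 arrays checked, 4 had 1 animal far from the others by Dixon's criterion, which chance gives in about 1 of 20 groups. Plin1 was 1580 in NP.P replicate 2, the highest of its strain. Lpl was 10733 in NP replicate 2, the highest of its strain, on the array with the highest muscle sum. Cidec was 340.2 in NP replicate 4, and Scd was 360.4 in P.NP replicate 4, each the lowest of its strain.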

How the results depend on the processing

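The differences of Fabp4, Plin1, Cfd, Cd36 and Lpl between backgrounds kept direction and call under all 27 alternatives. Against 2 adipocyte genes in NP.P minus NP, 1 passed with no filter, quantile normalization, a false discovery rate of 5%, the replicate block or 2 strains alone, 0 by the unequal-variance test, and 0 to 2 with an array left out. Against 1 in P minus NP, 0 passed with no filter, at 5%, with 2 strains alone or by the unequal-variance test, 2 with the filter at the 60th percentile, quantile normalization, the trend or the replicate block, and 0 to 2 with an array left out. The Adipoq call for the segment gave 0 with no filter, quantile normalization, at 5% or with the replicate block, and 0 to 1 with an array left out; the interaction gave 0 to 1. Of related genes 2 passed in NP.P minus NP, but 0 with no filter, at 5% or by the unequal-variance test, 1 with quantile normalization or 2 strains alone, 4 with the trend, 5 with the 60th percentile filter and 0 to 5 with an array left out. In P minus NP 4 passed, but 2 with 2 strains alone or by the unequal-variance test and 3 to 7 with an array left out. In P.NP minus P 1 passed, but 0 with 2 strains alone or by the unequal-variance test. The cause of these changes was not tested. Over all probe sets 429 passed in NP.P minus NP, 132 with no filter and 10 by the unequal-variance test; 43 in P.NP minus P, 18 and 0; and 999 in P minus NP, 411 by that test. With an array left out these were 119 to 528, 16 to 71 and 756 to 1237. At the probe sets read, signs turned only for values near zero: Cidec in NP.P minus NP (0.0056 with quantile normalization, -0.16 to 0.0493 with an array left out), Pparg in NP.P minus NP (-0.0934 to 0.13), Cfd in P.NP minus P (-0.11 to 0.0373), Cd36 in P.NP minus P (-0.0659 to 0.0006) and the Lpl interaction (-0.12 to 0.11). The other probe set of Plin1 was not tested. Its means had the opposite order in NP.P against NP and in P.NP against P. The relation of Adipoq with Cd36 passed without subtracting strain means (r = 0.57, adjusted permutation p = 0.0263). Replicate numbers were not taken as pairs, and the replicate block was run as an alternative only. Deviations of same-numbered animals correlated between -0.09 and 0.33. The highest values were those of replicate 2, 0.33 between P and NP and 0.26 between P.NP and P. Whether same-numbered arrays share a source of variation was not tested. The number of arrays limits what could pass.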
